A study of Mus musculus with 16 samples.

Results

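The 7 genes described here encode peptide hormones of the islet and the gut other than insulin: Gcg, Sst, Ppy, Pyy, Ghrl, Gast and Npy. They were found by symbol, and all 7 stood both among the 22869 genes of the read count table and among the 2283 genes of the authors' comparison table. RNA came from whole mouse pancreata at embryonic day 15.5 on a mixed background. The groups were 4 control libraries, 4 Pdx1LacZ/+ libraries (1 Pdx1 allele carrying lacZ), 3 Oc1+/- libraries (1 allele of Oc1, listed as Onecut1, lost) and 5 Pdx1LacZ/+;Oc1+/- double heterozygotes. The labels name no Cre or other restriction of the alleles to a cell type. Whether the libraries of a group came from different litters is not in the labels, and p-values here reflect only the variation among the libraries sequenced.

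Islet hormones are made as precursors, cut by prohormone convertases in secretory granules and released on demand. Alpha cells make glucagon, delta cells somatostatin, PP cells pancreatic polypeptide and epsilon cells ghrelin, and all of them arise in the embryo from Neurog3-expressing progenitors. Peptide YY, gastrin and neuropeptide Y are made in the fetal islet as well as in gut endocrine cells or neurons. Pdx1 is a homeodomain factor of pancreas formation and of beta and delta cells. Oc1 is a factor of pancreatic progenitors that acts upstream of Neurog3. In whole pancreata, fewer cells of a type and less RNA per cell cannot be told apart.

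Glucagon, somatostatin, gastrin and neuropeptide Y transcripts were the 4 that fell in the double heterozygotes against control, so the sequences just upstream of their start sites are shown. These are 250 bases before the RefSeq start (build GRCm38.p6), 5′ to 3′ on the gene's strand. Capitals mark 3 motifs, each searched on both strands: TAAT, the core of sites bound by Pdx1 and many other homeodomain factors; ATCAAT, a core of Onecut sites; and the cAMP response element TGACGTCA.
Gcg, chr2:62483654-62483903, minus strand: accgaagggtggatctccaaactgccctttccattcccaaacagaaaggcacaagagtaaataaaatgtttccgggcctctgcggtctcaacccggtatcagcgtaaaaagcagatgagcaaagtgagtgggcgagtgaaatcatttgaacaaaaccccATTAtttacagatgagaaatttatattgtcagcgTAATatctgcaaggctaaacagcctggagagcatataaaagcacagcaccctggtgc
Sst, chr16:23890845-23891094, minus strand: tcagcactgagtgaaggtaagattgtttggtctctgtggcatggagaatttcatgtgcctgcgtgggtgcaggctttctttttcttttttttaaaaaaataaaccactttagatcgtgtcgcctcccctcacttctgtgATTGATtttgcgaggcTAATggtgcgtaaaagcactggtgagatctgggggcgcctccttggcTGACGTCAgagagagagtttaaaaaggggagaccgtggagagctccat
Gast, chr11:100334157-100334406, plus strand: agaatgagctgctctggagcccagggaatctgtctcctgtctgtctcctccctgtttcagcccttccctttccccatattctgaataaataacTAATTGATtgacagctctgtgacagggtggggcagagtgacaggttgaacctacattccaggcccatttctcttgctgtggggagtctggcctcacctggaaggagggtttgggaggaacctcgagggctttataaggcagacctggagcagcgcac
Npy, chr6:49822460-49822709, plus strand: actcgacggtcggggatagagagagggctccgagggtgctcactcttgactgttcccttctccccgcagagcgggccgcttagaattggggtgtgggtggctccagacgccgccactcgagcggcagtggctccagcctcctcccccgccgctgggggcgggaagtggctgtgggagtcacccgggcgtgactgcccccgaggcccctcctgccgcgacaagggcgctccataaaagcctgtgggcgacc

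The Sst window held 1 match to each of the 3 motifs. Its TAAT began 95 bases before the start, its Onecut core 111 bases and its cAMP response element 48 bases before. In the Gast window the TAAT began at 157 bases and the Onecut core at 155 bases, so that they overlap. The Gcg window held 2 TAAT matches, at 91 and 57 bases, and no match to the other motifs. None of the 3 motifs was in the Npy window, nor in the windows of Ppy, Pyy (2 starts) and Ghrl (4 starts). Of 32851 RefSeq windows of this length, 54.9% held TAAT, 6.72% held the Onecut core and 1.55% held the cAMP response element. A match describes the letters and is not evidence of binding.

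Gcg was by far the most abundant of the 7 transcripts. Over all libraries its mean was 1087 CPM (read counts scaled to the size of the library), or 999 CPM per kilobase of transcript, from the mean log2 CPM of 10.09 from the authors' deposited table. Pyy followed at 201 CPM per kilobase, Ghrl at 83.6 and Sst at 20.5. Ppy, Npy and Gast were low, at 10.8, 9.58 and 7.21 CPM per kilobase. Values per library were not analysed here, so this order of levels has no spread beside it and the last 3 were not separated from each other.

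The mean CPM and the fold changes together give an estimated level for each genotype. Gcg was put at 1307 CPM in control, 1068 in Pdx1LacZ/+, 1343 in Oc1+/- and 774 CPM in the double heterozygotes. Sst came to 13.9, 15.4, 27.9 and 7.22 CPM in the same order. For both hormones the double heterozygotes had the lowest estimated level. Pyy came to 114, 110, 168 and 76.7 CPM, and Ghrl to 38.7, 62.2, 36.7 and 38.2 CPM. Ghrl was the 1 hormone whose highest level was in Pdx1LacZ/+. Ppy came to 4.13, 5.94, 8.07 and 4.01 CPM. Gast came to 4.90, 3.26, 4.01 and 1.67 CPM, and Npy to 7.58, 1.90, 13.1 and 1.89 CPM. By these point values 5 of the 7 (Gcg, Sst, Ppy, Pyy and Npy) stood highest in Oc1+/-, although Gcg was there close to control (1343 beside 1307 CPM). All but Ghrl stood lowest in the double heterozygotes, although Ppy was there close to control and Npy close to Pdx1LacZ/+.

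**Figure D1:**
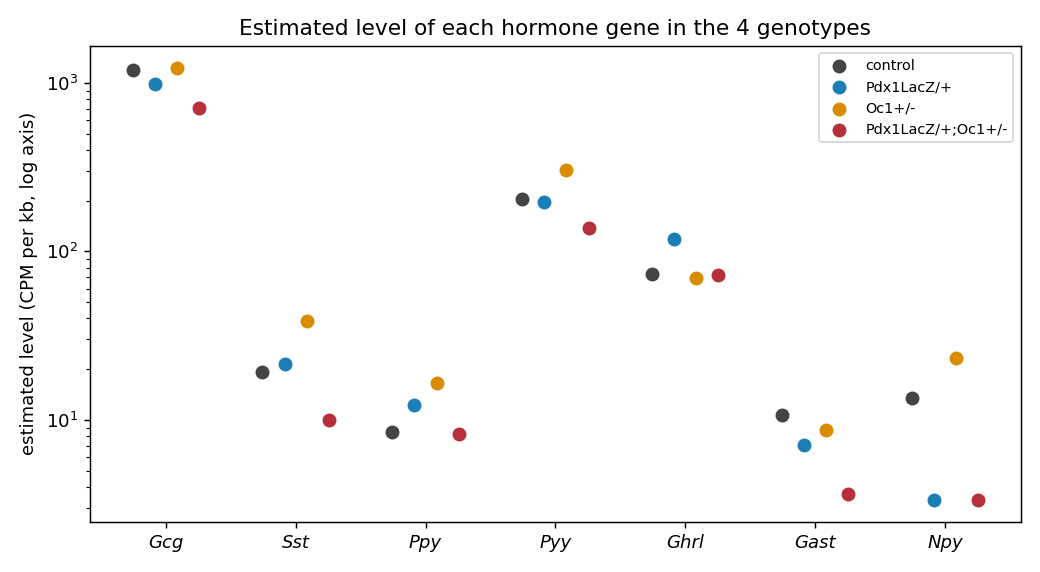
Estimated level of the 7 hormone genes in the 4 genotypes, in CPM per kilobase of transcript on a log axis; each point is a group value computed from the authors' mean CPM and fold changes, so there are no error bars. Gcg runs from 711 to 1234, and Npy stands at 3.36 and 3.34 in the groups that carry the Pdx1LacZ allele against 13.4 in control.

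Pdx1 transcript was itself lower in both carriers of the lacZ allele, by 0.47 and 0.61 on the log2 scale against control from the authors' deposited table (adjusted p = 0.00427 and 5.03e-07). Onecut1 was not separated from control in carriers of the Oc1 allele from the authors' deposited table (-0.48 and -0.27, adjusted p = 0.146 and 0.954). Of 23 acinar markers, 22 were listed, and all 22 were called higher in Oc1+/-, where 1428 genes were called in all. The Oc1+/- libraries also stood at -8.78 for the X-inactivation transcript Xist from the authors' deposited table (adjusted p = 0.00249). CPM is a share of the counted reads, so hormone values in Oc1+/- are relative to libraries in which these acinar genes were higher; their part in the hormone results was not tested. A gene was called where its adjusted p over all 22869 genes was under 0.05 and its fold change at least 1.5. Standard errors were derived from each fold change and its p-value, and comparisons with control share the same 4 control libraries.

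In the double heterozygotes 4 of the 7 hormone genes fell and none rose, and all 7 fold changes were below 0. In this comparison 0.743% of all genes were called, 0.555% lower. These are 170 genes, 127 of them lower, and all stand among the 2283 listed genes, as do the 7 hormones. On the log2 scale the 7 had a median of -0.76, beside 0.05 for all 2275 listed genes with a value. Gcg, the glucagon precursor, fell by 0.76 ± 0.18 (derived SE; 1.69-fold, adjusted p = 0.007 from the authors' deposited table). The delta cell hormone gene Sst fell by 0.95 ± 0.24 (1.93-fold, adjusted p = 0.0126 from the authors' deposited table). Both had smaller fold changes than the other hormones that were called.

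Gast, which encodes gastrin, a stimulant of gastric acid that the fetal islet also makes, fell by 1.55 ± 0.25 (2.93-fold, adjusted p = 5.91e-07 from the authors' deposited table). Npy, a regulator of insulin release and a neuronal transmitter, fell 4.01-fold (derived SE 0.35 on the log2 scale, adjusted p = 5.7e-06 from the authors' deposited table). Npy had the largest fall of the 7. Pyy, an inhibitor of gut secretion and motility, stood at -0.57 ± 0.15 from the authors' deposited table, with adjusted p = 0.0177 but a fold change of 1.48, under the minimum; at least 1.07% of all genes passed the adjusted p alone. Ppy stood at -0.04 ± 0.21 and Ghrl at -0.02, the latter without a standard error since its p-value was above 0.9 (adjusted p = 1 for both from the authors' deposited table). The 95% interval of Ppy ran from -0.45 to 0.37.

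**Figure D2:**
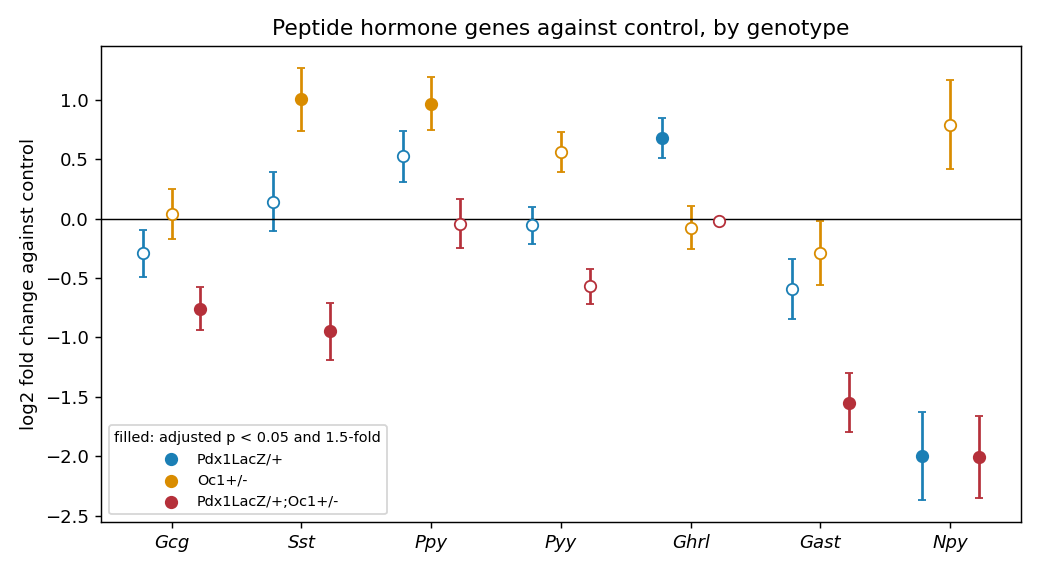
Log2 fold change of each hormone gene against control in Pdx1LacZ/+, Oc1+/- and double heterozygous pancreata; bars are the derived standard error, absent for Ghrl in the double heterozygotes, and filled points passed adjusted p under 0.05 and 1.5-fold. In the double heterozygotes all 7 points are at or below 0, while in Oc1+/- Sst and Ppy lie near 1.

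In Pdx1LacZ/+ against control 2 of the 7 moved, in opposite directions. Here 0.249% of all genes were called. Npy fell 3.99-fold (derived SE 0.37 on the log2 scale, adjusted p = 0.000278 from the authors' deposited table), close in size to its fall in the double heterozygotes. Ghrl, the precursor of the appetite hormone ghrelin, rose by 0.68 ± 0.17 (1.61-fold, adjusted p = 0.0226 from the authors' deposited table). This call is lost at an adjusted p under 0.01, and less the median of the listed genes the Ghrl value was 0.58, under the fold minimum. GENCODE M21 places the antisense transcript Gm26982 and the unconfirmed gene Gm44033 on the strand opposite Ghrl; neither was counted, and whether counting used strand is not given in the sources used here.

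The other 5 hormone genes did not pass in Pdx1LacZ/+. Gast stood at -0.59 ± 0.25 and Ppy at 0.53 ± 0.21 from the authors' deposited table; their unadjusted p-values were 0.0184 and 0.0136, and the adjusted ones 0.648 and 0.584. Gcg stood at -0.29 ± 0.19, Sst at 0.14 ± 0.25 and Pyy at -0.05 ± 0.16 from the authors' deposited table (adjusted p = 1 for each). Their 95% intervals were -0.67 to 0.09, -0.35 to 0.64 and -0.36 to 0.25.

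In Oc1+/- against control 2 of the 7 rose and none fell. Onecut1 was not separated from control in these libraries, and Xist and the acinar markers also differed, as given above. What part the Oc1 allele or these differences had in the hormone values was not tested. The background was high here, with 6.24% of all genes called and 3.66% called higher. Sst rose by 1.01 ± 0.27 (2.01-fold, adjusted p = 0.00245 from the authors' deposited table). Ppy, which encodes pancreatic polypeptide, rose by 0.97 ± 0.22 (1.96-fold, adjusted p = 0.000367 from the authors' deposited table). Pyy, its paralog and direct neighbour in GENCODE M21, stood at 0.57 ± 0.17 from the authors' deposited table with adjusted p = 0.00836 and a fold change of 1.48, under the minimum. At least 15.1% of all genes passed the adjusted p alone.

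Npy stood at 0.79 ± 0.37 in Oc1+/- from the authors' deposited table (adjusted p = 0.149). Gast stood at -0.29 ± 0.27, Ghrl at -0.08 ± 0.18 and Gcg at 0.04 ± 0.21 (adjusted p = 0.576, 0.962 and 1 from the authors' deposited table). The Gcg interval ran from -0.37 to 0.45.

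Comparing double with Pdx1LacZ/+ pancreata asks what an Oc1 allele adds when Pdx1 is already reduced. Of the 7 hormones 3 fell, beside 0.861% of all genes called and 0.63% called lower. Sst was lower by 1.09 ± 0.24 (2.13-fold), Gast by 0.96 ± 0.25 (1.94-fold) and Ghrl by 0.70 ± 0.16 (1.63-fold) from the authors' deposited table once the sign was turned (adjusted p = 0.0014, 0.0166 and 0.00201). Ghrl, raised in Pdx1LacZ/+, had an estimated level of 38.2 CPM in the double heterozygotes beside 38.7 CPM in control.

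Pyy stood at -0.51 ± 0.15 in the same comparison of the authors' deposited table, with adjusted p = 0.0416 and 1.43-fold, where at least 1.35% of all genes passed the adjusted p alone. Ppy stood at -0.57 ± 0.20 and Gcg at -0.46 ± 0.18 (adjusted p = 0.178 and 0.296 from the authors' deposited table). Npy stood at -0.01 from the authors' deposited table (adjusted p = 1, no standard error), with estimated levels of 1.90 and 1.89 CPM. The Gcg fall in the double heterozygotes was thus called against control but not against Pdx1LacZ/+.

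Between the single heterozygotes, 3 of the 7 were lower in Pdx1LacZ/+ than in Oc1+/- and 1 was higher; 4.66% of all genes were called. Npy was lower by 2.79 ± 0.39 (6.90-fold), Sst by 0.86 ± 0.27 and Pyy by 0.62 ± 0.17 from the authors' deposited table (adjusted p = 1.01e-09, 0.0165 and 0.00453). Ghrl was higher by 0.76 ± 0.18 from the authors' deposited table (adjusted p = 0.00103). Ppy at -0.44 ± 0.22, Gcg at -0.33 ± 0.21 and Gast at -0.30 ± 0.27 did not pass from the authors' deposited table (adjusted p = 0.208, 0.379 and 0.604).

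Double against Oc1+/- pancreata, which asks what the Pdx1 allele adds when an Oc1 allele is already lost, had 6 of the 7 hormones lower. Its fold changes are differences of the authors' values and its p-values were derived from theirs. The Oc1+/- libraries also differed in Xist and the acinar markers, as given above, and their part here was not tested. At least 4.88% of all genes were called and 2.79% called lower, since genes outside the comparison table cannot be counted here; of the 2265 listed genes with a test 49.3% were called. Npy was lower by 2.80 ± 0.38 (6.94-fold, adjusted p = 4.1e-11) and Sst by 1.95 ± 0.26 (3.87-fold, adjusted p = 1.44e-11). Gast was lower by 1.26 ± 0.26, Pyy by 1.14 ± 0.16, Ppy by 1.01 ± 0.22 and Gcg by 0.79 ± 0.20 (adjusted p = 7.17e-05, 4.12e-10, 0.000117 and 0.00193). Ghrl stood at 0.06 ± 0.17 (adjusted p = 1), with a 95% interval from -0.28 to 0.40. The median over the listed genes was -0.32 in this comparison, and taking it off put Gcg at -0.47, under the fold minimum.

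The interaction asks whether the double heterozygote departs from the sum of both single effects on the log2 scale. For Sst, Ppy and Pyy it did, in the direction of lower expression, and all 7 hormones lay below the sum. Both single effects on Sst summed to 1.15, whereas the double heterozygote stood at -0.95, a difference of -2.10 ± 0.36 (adjusted p = 1.01e-06). For Ppy the sum was 1.49 and the double heterozygote -0.04, a difference of -1.54 ± 0.30 (adjusted p = 3.02e-05). For Pyy the sum was 0.51 and the double heterozygote -0.57, a difference of -1.08 ± 0.22 (adjusted p = 0.000101).

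For the other 4 the interaction did not pass. Npy stood at -0.80 ± 0.52, Gast at -0.67 ± 0.37, Ghrl at -0.62 ± 0.24 and Gcg at -0.50 ± 0.28 (adjusted p = 1, 0.941, 0.167 and 0.977). At least 4.63% of all genes were called in the interaction and 2.97% called lower. Of the 2265 listed genes with a test, among which all 7 hormones stand, 1058 (46.7%) were called in either direction. Called lower, as were the 3 hormones, were 679 of these 2265. Such calls were thus common among the listed genes, and 3 of 7 is no result about the hormones as a group. The median over the 2275 listed genes was -0.43 beside -0.80 for the 7 hormones. Of the 22 listed acinar markers 20 were also called below the sum, with a median of -2.55. Their part in the hormone values was not tested.

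**Figure D3:**
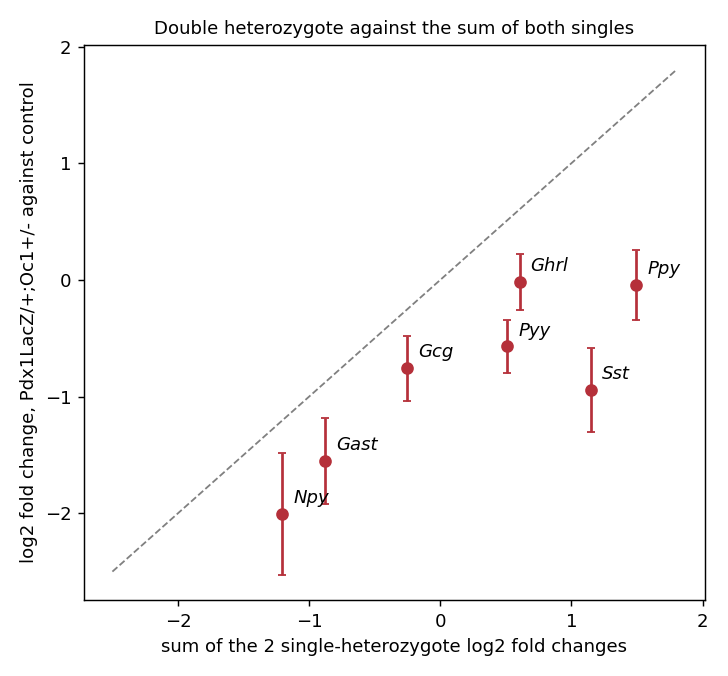
Log2 fold change in the double heterozygotes against the sum of the log2 fold changes in the single heterozygotes, 1 point per hormone gene; bars are the standard error of the departure from the sum, the dashed line marks equality, and both axes use the same control libraries. All 7 points lie below the line, Sst, Ppy and Pyy farthest.

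The cells that make these hormones share factors, processing enzymes and granule proteins, and these lists were counted next. For these lists and the markers below, the share of all genes called against control was 0.249% in Pdx1LacZ/+. It was 6.24% in Oc1+/- (3.66% called higher) and 0.743% in the double heterozygotes (0.555% called lower). Of 25 transcription factors of hormone-producing cells, 9 fell in the double heterozygotes against control and none rose; Pdx1, whose gene carries the lacZ allele, is among the 9. In the authors' deposited table Mafa, an activator of insulin transcription, fell by 1.57 and Mnx1, a homeodomain factor of the dorsal pancreas bud, by 1.44 (adjusted p = 2.76e-05 and 1.61e-07). Neurog3, the master factor of endocrine commitment, fell by 0.75 and its target Pax4 by 0.72 (adjusted p = 0.00025 and 0.0259 from the authors' deposited table). The 14 listed factors had a median of -0.64. In Oc1+/- 3 of the 25 fell, Rxrg, Pax4 and Neurog3. In Pdx1LacZ/+ none was called. Pdx1 itself had adjusted p = 0.00427 there by the authors' edgeR test, but its fold change of 1.39 was under the minimum. Of the 14 listed, 1 higher and 3 lower, Pdx1 among them, had p under 0.05 before adjustment.

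Of 16 precursor processing and granule genes, 5 fell in the double heterozygotes against control. Pcsk2, the convertase that cuts proglucagon to glucagon, fell by 0.89 and its chaperone Scg5 by 0.93 from the authors' deposited table (adjusted p = 2e-06 and 0.0471). The granins Scg3, Chgb and Scg2 fell by 0.67, 0.65 and 0.63 from the authors' deposited table (adjusted p = 0.00082, 0.00249 and 0.00785). In Oc1+/- Scg2 rose by 0.71, whereas Scg5 and Chgb fell by 1.18 and 0.82 from the authors' deposited table (adjusted p = 0.00084, 0.00273 and 5.33e-05). In Pdx1LacZ/+ none of the 16 was called by the authors' edgeR test, and of the 7 listed none had an unadjusted p under 0.05.

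Alpha cell genes other than glucagon fell with it in part. Of 13, 2 fell in the double heterozygotes against control, Pcsk2 among them. Irx1, an alpha cell factor, stood at -0.64 from the authors' deposited table (adjusted p = 0.0688). Of 10 counted delta, PP and epsilon cell genes, 2 fell and 1 rose in the same comparison. Rbp4, a retinol carrier of delta cells, fell by 0.78 and the somatostatin receptor gene Sstr3 by 0.85, and Nkx6-2 rose by 0.73 from the authors' deposited table (adjusted p of 1.09e-09, 0.0114 and 0.0138). Hhex, the delta cell factor, stood at -0.04 from the authors' deposited table (adjusted p = 1). In Oc1+/-, where Sst and Ppy were high, Hhex stood at -0.41 from the authors' deposited table (adjusted p = 0.034), and 3 other genes of that list rose: the ghrelin receptor gene Ghsr, Anpep and Acsl1.

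Receptors for these hormones changed in few cases. Of 16 counted, Glp1r, the receptor of the proglucagon product GLP-1, and Sstr3 fell in the double heterozygotes against control (-1.20 and -0.85 from the authors' deposited table; adjusted p = 0.0485 and 0.0114). In Oc1+/- Cckar, a cholecystokinin receptor, rose, while the gastrin receptor gene Cckbr and the neuropeptide Y receptor gene Npy1r fell (0.74, -1.65 and -0.82 from the authors' deposited table; adjusted p = 0.00569, 0.0086 and 0.0377). Ghsr was also called higher there (adjusted p = 0.0405 from the authors' deposited table), and no fold is given for it because its values did not differ at all between Pdx1LacZ/+ and control (p = 1), and whether those groups hold any reads of it was not analysed here. None passed in Pdx1LacZ/+ by the authors' edgeR test (of the 10 listed, 1 higher and 1 lower had p under 0.05 before adjustment). Glp1r was the lower gene there, at -1.18 from the authors' deposited table (adjusted p = 0.163), close to its value in the double heterozygotes.

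Gastrin is also made in the stomach and neuropeptide Y in neurons, so markers of those tissues are given beside them. Of 23 stomach and intestine markers, Cym, Cldn18 and Agr2 rose and Gkn2 fell in the double heterozygotes against control, where Gast fell; the authors' deposited table gives 1.72, 1.67, 1.66 and -5.91 (adjusted p of 0.000266, 0.000541, 0.0409 and 0.0374). Gast was not called in the single heterozygotes, where such markers moved too. In Pdx1LacZ/+ 2 rose, Lgals4 and Agr2 (3.52 and 2.31). In Oc1+/- 4 rose, Agr2, Cldn18 and Tff2 among them (2.71, 2.05 and 1.76), and 1 fell, Cym (-1.57). Of 22 neural and Schwann markers none was called in the double heterozygotes or in Pdx1LacZ/+ by the authors' edgeR test (of the 12 listed, 5 and 3 were lower at an unadjusted p under 0.05). Th, an enzyme of sympathetic neurons, stood at -0.75 and -1.03 there from the authors' deposited table (adjusted p = 0.505 and 0.307). In Oc1+/-, where Npy stood at 0.79 from the authors' deposited table, 6 of the 22 neural markers fell and 1 rose, beside 6.24% of all genes called. Of 18 counted liver markers 6 fell and 1 rose in the double heterozygotes against control. The part of these tissues in the hormone values was not tested.

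**Figure D4:**
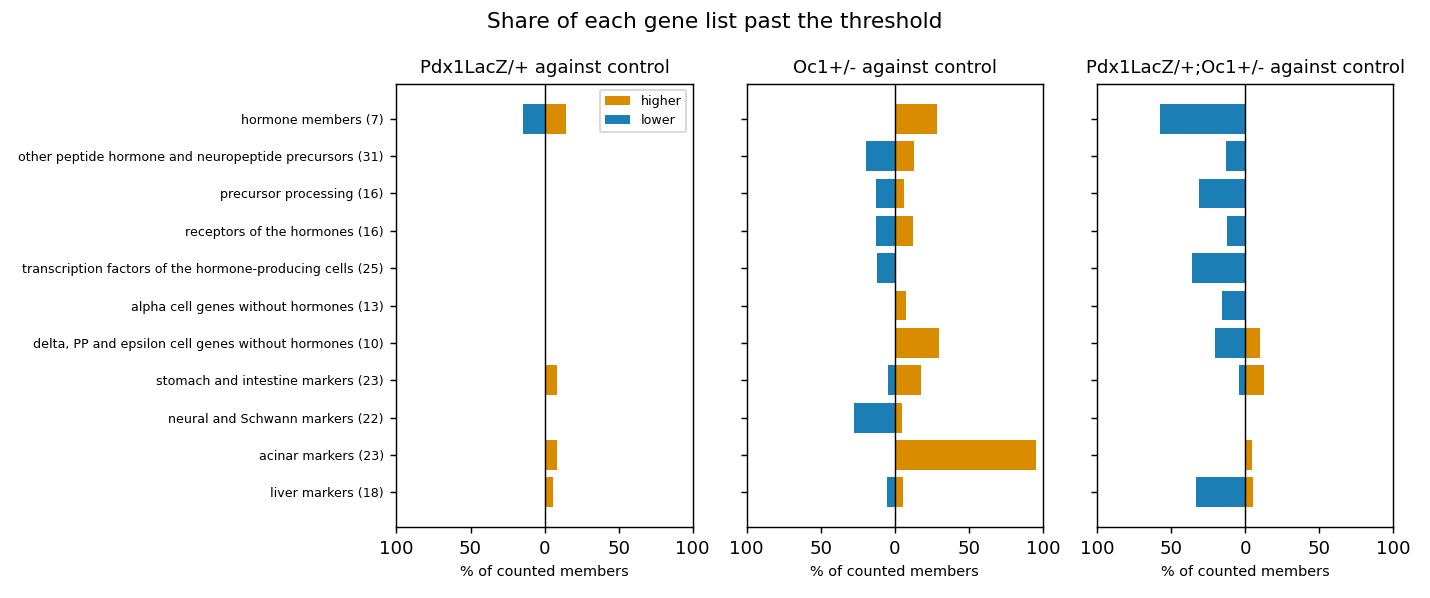
Share of the counted members of each gene list that was called higher (orange, to the right) or lower (blue, to the left) against control in the 3 heterozygous genotypes; the number of counted members stands in parentheses and 0 is at the vertical line. In the double heterozygotes the hormones (4 of 7) and the transcription factors of hormone-producing cells (9 of 25) have lower members and no higher ones. The same holds for the lists of other peptide precursors, precursor processing, receptors and alpha cell genes. In Oc1+/- 22 of 23 acinar markers are higher.

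The genes nearest to each hormone in pattern were taken over the 3 log2 fold changes against control, by Euclidean distance among 1610 listed genes whose mean log2 CPM was no lower than 1. For Gcg these were Ap3b2, a neuronal vesicle adaptor subunit (distance 0.06), Atp2a3 (0.09) and Rab37 (0.11). Gast was nearest to Mnx1 (0.29), Adra2a (0.40) and O3far1 (0.44). Pyy was nearest to Adcy9 (0.15), Pappa2 (0.17) and the granin Scg2 (0.19). For Ppy they were Anks4b (0.11), Gpd1 (0.15) and the gene listed as 2200002J24Rik (0.16). Ghrl had Stk32a (0.15), Fam196b (0.19) and Acnat1 (0.22) beside it. Sst had Naip6 (0.33) and Naip7 (0.37) among its nearest genes. Npy had no near neighbour: Iapp, the islet amyloid peptide gene, was closest at 1.40, then Pnliprp2 and Gip, also at 1.40. A likeness over 3 values that share control libraries is a description.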

How the data were processed

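RNA libraries were prepared with a TruSeq kit from pancreata dissected into Trizol, per the labels' protocols. The submitters' processing notes name CASAVA 1.8.2, edgeR and build mm9; the aligner is not given in the sources used here. No label ties the 16 library columns of the count table to a sample, so only its gene symbols were read, and depth, standard deviations and refits were not analysed here. For each comparison the authors deposited log2 fold changes, mean log2 CPM values, p-values and adjusted p-values; the test is taken to be edgeR's. Genes are in this table where they reached adjusted p under 0.1 with a 1.5-fold change in at least 1 comparison, and unlisted genes were taken as not called.

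Values shifted by an empty cell were realigned in 8 rows. Fold changes under the fourth heading were Pdx1LacZ/+ minus double in 2275 of 2275 rows (tolerance 1e-06), and their sign was turned. Those under the fifth, headed double against Oc1+/-, were Pdx1LacZ/+ minus Oc1+/- in 2279 of 2279 rows and are used as such. The first 3 headings were kept: variances relative to the first had medians of 1.15 and 0.905 for Oc1+/- and double against control, where group sizes give 1.17 and 0.9, or 1.30 and 1.11 with the headings of Pdx1LacZ/+ and double exchanged.

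The variance of a fold change was its square over the squared normal quantile of p, with none at p of 0.9 or more. For double against Oc1+/- and the interaction, fold changes were added, and variances were combined over 2 routes and scaled by group size. Their two-sided p-values came from the normal distribution, with Benjamini-Hochberg adjustment over 22869 genes. This calculation was tried on simulated data. That trial cannot show how near its standard errors and p-values come to edgeR's, since the counts were not refitted. Estimated levels treat the mean CPM as arithmetic; a mean of logs would move them by 2.50% to 40.7%, most for Npy. Lengths are from GENCODE M21. At most 4 called genes per list and comparison are named, by size of change; Scg2, Irx1, Hhex and Th were named after their values were seen, and a few genes are not reported here. Members and lists were chosen with earlier results of these data known. Python 3.11.15, pandas 2.3.3 and scipy 1.17.1 were used.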

Additional observations from a re-analysis of the deposited data

Results flagged for a closer look

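For 3 hormones the effect of 1 allele differed with the genotype at the other locus, by the interaction test derived from the authors' values. Such calls were common, made for 46.7% of the 2265 listed genes with a test. Xist and the acinar markers also differed in Oc1+/-, as given above, and their part in these values was not tested. The log2 fold change with the Pdx1 allele stood at 0.14 for Sst with normal Oc1 and at -1.95 in Oc1+/-, a difference of -2.10 (adjusted p = 1.01e-06). For Ppy these values stood at 0.53 and -1.01, a difference of -1.54 (adjusted p = 3.02e-05). Those of Pyy stood at -0.05 and -1.14, a difference of -1.08 (adjusted p = 0.000101). With the Oc1 allele, Sst, Ppy and Pyy stood at 1.01, 0.97 and 0.57 with normal Pdx1 and at -1.09, -0.57 and -0.51 in Pdx1LacZ/+. None of the 3 was called for the Pdx1 allele with normal Oc1. For the Oc1 allele Pyy was not called in either background, nor was Ppy in Pdx1LacZ/+.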

How the results depend on the processing

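No paired analysis was possible because the count table's columns carry no replicate numbers; for the same reason leaving out each replicate, another scaling, DESeq2 and another count filter were not run. Counts of called hormones stayed within 1.5 times under 27 of 28 alternatives; the exception was Pdx1LacZ/+ against control, where an adjusted p under 0.01 left 1 of the 2, Npy. Without the fold minimum Pyy joined in 3 comparisons, giving 3 in Oc1+/-, 5 in the double heterozygotes and 4 in double against Pdx1LacZ/+. Adjusted over the listed genes alone, Ghrl joined the interaction (4; adjusted p = 0.0167). With the variance through Oc1 against control and double against Pdx1 alone, Npy had no test and double against Oc1+/- had 5. A variance without scaling by group size, added after seeing the data, gave 6. Taking off the median of all listed genes turned 2 fold changes that were not called, Gcg in Oc1+/- (-0.024) and Npy in double against Pdx1LacZ/+ (0.057). It put 3 called ones under the fold minimum: Ghrl in Pdx1LacZ/+ (0.58), Pyy in Pdx1LacZ/+ against Oc1+/- (-0.55) and Gcg in double against Oc1+/- (-0.47). Pyy in the double heterozygotes then passed (-0.62).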

Other observations

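Other peptide precursor genes of gut, nerve and islet moved in both directions in Oc1+/-: of 31 counted, 4 rose and 6 fell against control. Beside this, 6.24% of all genes were called in Oc1+/- and 3.66% were called higher. The neurotensin gene Nts stood at -2.20, Pthlh, which encodes a parathyroid hormone-related peptide, at -1.95, Pnoc, the nociceptin precursor, at -1.86 and Npw, the neuropeptide W precursor, at 1.37; the adjusted p-values of the authors' deposited table were 0.0423, 0.00376, 6.96e-05 and 0.0472. The other 3 that rose were Ins1, Ins2 and Iapp, named after their values were seen, which stood at 0.93, 0.90 and 0.72 (adjusted p of 0.00192, 0.000556 and 0.0108 from the authors' deposited table). Their departures from the sum of both single effects were -2.79, -2.57 and -2.03 (derived adjusted p of 6.63e-14, 8.29e-15 and 4.32e-09). In the double heterozygotes 4 of the 31 fell and none rose. They were Ins1, Ins2, Iapp and Vip, a neuropeptide of gut nerves, the last at -1.28 with adjusted p = 0.00586 by the authors' deposited table. In Pdx1LacZ/+ none was called by the authors' edgeR test; of the 14 listed, 5 were lower and none higher at p under 0.05 before adjustment.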
